A study of Mus musculus with 7 samples.

Results

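The 4 libraries described here were made from the uterine epithelium of mice with a Cre-driven deletion of Brg1 in that tissue, and they make up 4 of the 7 libraries of the study. The rule that chose them names the genotype and no measured value. Each library held RNA of endometrial epithelial cells, sorted with magnetic beads for the surface protein EPCAM, from 1 CD-1 mouse aged 120 days of the genotype LtfCre0/+; Brg1fl/fl. CD-1 is an outbred stock, Brg1fl/fl means that both copies of the gene carry sites cut by Cre recombinase, and LtfCre0/+ is a single copy of Cre under control of the lactoferrin gene Ltf, which is active in the epithelium of the mature uterus. Cells in which Cre has not acted keep Brg1, and the share of such cells in each sort is unknown. The other 3 libraries, pools of control wild-type CD-1 mice, enter no comparison below. The sources used here do not give the stage of the oestrous cycle at which each mouse was taken. The question is how far these 4 mice differ from each other: which genes and programmes varied, which stayed level, and which moved together.

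Brg1 is the product of Smarca4 and one of the ATPase motors of SWI/SNF, complexes that slide and evict nucleosomes and so open regulatory DNA. The epithelium of the uterus is among the tissues most responsive to ovarian steroids. Oestrogen drives division of the cells that line the lumen and secretion of proteins such as lactoferrin and complement C3, while progesterone halts that division and switches on genes such as Ihh, whose product signals to the stroma. Glands bud from the lumen under Wnt signalling and the transcription factor Foxa2, and their secretions, among them proteases and leukaemia inhibitory factor (Lif), prepare the uterus for an embryo.

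Reads counted in genes numbered 12436971, 12509578, 12518865 and 13364080 in mutant replicates 1 to 4, and between 19914 and 21385 genes had a read. Levels are given as counts per 1000000 gene reads after TMM scaling (CPM), always in the order of replicates 1 to 4. The spread of a gene is the standard deviation (SD) of its log2 CPM over the 4 libraries, and it was computed for the 13861 genes with a mean of at least 1 CPM. A gene was called variable at an SD above 1 and constant at an SD below 0.25. At this depth 3 reads, the floor for a ratio, equal 0.206 to 0.259 CPM. With 4 animals and a single genotype there are no groups to test, so every value below is a description, and a ratio or an order among 4 mice has no replicate check. The cells of a bulk sample are pooled, so fewer cells of a type and less RNA per cell cannot be told apart.

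Smarca4 (ENSMUSG00000032187.16, chr9:21616169-21704230, plus strand, GRCm38) was measured at 94, 63.8, 95.7 and 119 CPM. The highest library, replicate 4, held 1.87 times the level of the lowest, replicate 2 (SD 0.37). These counts run over the whole gene, so they cannot tell transcripts with the deletion from intact ones. Markers of the sorted tissue were present in every library. Epcam, the sort antigen, lay at 788, 836, 632 and 791 CPM, and Cdh1, the adhesion protein E-cadherin, at 1363, 1738, 1471 and 1601 CPM. Both were constant, with SDs of 0.18 and 0.15. The oestrogen receptor Esr1 was at 950.1, 511, 387 and 396 CPM, highest in replicate 1.

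Spread among the 4 mice went far beyond counting error. The median SD was 0.50, against 0.082 expected from counting reads alone, and 2844 genes (20.5% of those tested) were variable while 2575 (18.6%) were constant. The SD was at or under its counting value for 319 genes (2.30%). Low genes spread more, with a median SD of 0.81 from 1 to 5 CPM, 0.48 from 5 to 50 CPM and 0.39 at 50 CPM and above. Among the last 4559 genes, 12% were variable and 28.2% constant.

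**Figure D1:**
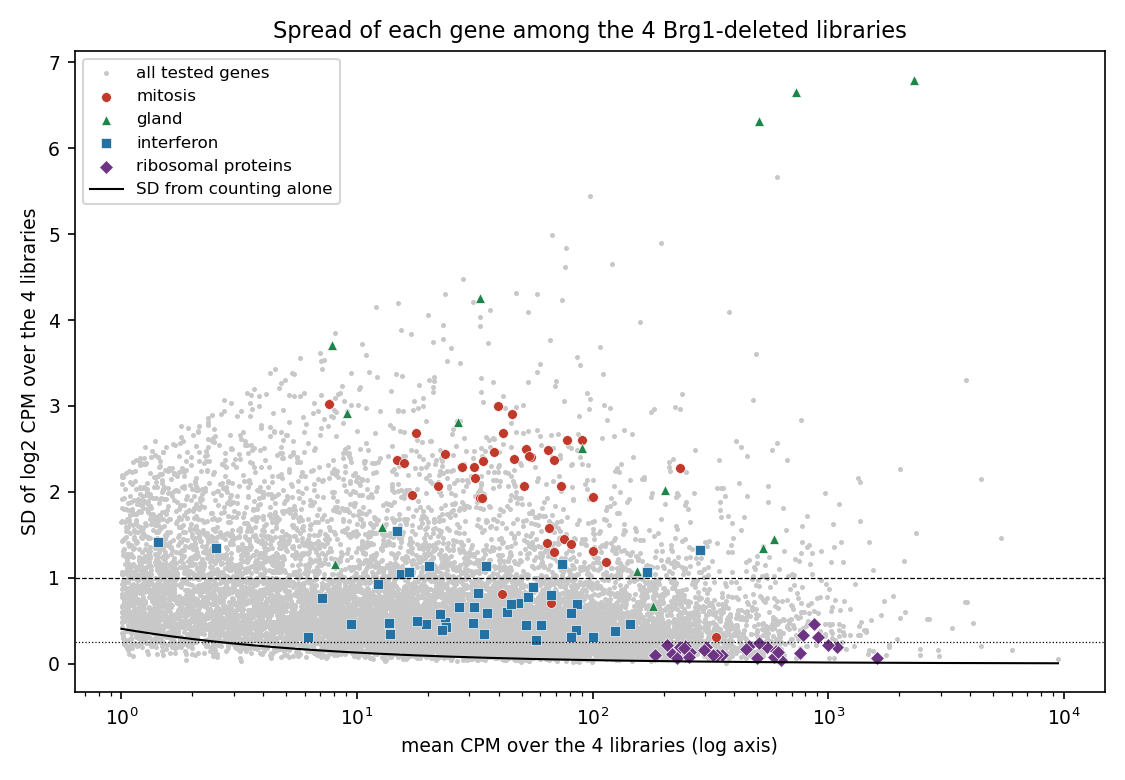
Spread of each gene among the 4 Brg1-deleted libraries: the x axis is the mean CPM over the libraries (log axis), the y axis the SD of log2 CPM, and the line the SD from counting alone, with dashes at an SD of 1 and dots at 0.25. Mitosis genes (red circles) lie mostly above an SD of 1, 3 gland genes (green triangles) stand highest of all, interferon genes (blue squares) lie mostly below 1 and ribosomal proteins (purple diamonds) mostly below 0.25.

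Replicate 1 stood furthest from the others. It held 42.8% of the summed squared deviations from gene means, against 24.1%, 16.1% and 16.9% in replicates 2 to 4. It was lowest for 38.5% of genes and highest for 31.8%. It lay 2-fold or more above the next library for 1016 genes (7.33%) and 2-fold or more below it for 1201 genes (8.66%). The same counts were 318 (2.29%) and 522 (3.77%) for replicate 2, 94 (0.678%) and 189 (1.36%) for replicate 3, and 343 (2.47%) and 220 (1.59%) for replicate 4. Replicates 2 and 3 were the closest pair, with 12.8% of genes 2-fold or more apart, and replicates 1 and 3 the furthest, with 38.9%. Without replicate 1, 1720 genes were variable (12.6% of 13654), of which 1463 were also variable among all 4, and 4455 were constant (32.6%). Without replicate 2, 3 or 4 in turn the variable share was 20.3%, 22.6% and 22%. Replicate 1 also had the most unmapped reads (6.70%, 4.24% to 5.15% in the others) and the most reads outside genes (14%, 10.5% to 11.5%), while its mitochondrial share was the lowest (2.19%, 2.28% to 2.75%). Reads matching several places are left out of that share. Since mt-Atp6, mt-Co3 and mt-Co2 share 99.5% to 100% of their 50-base words with other genes, it is an undercount. The part of these library differences in the results was not tested.

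A first principal component held 67.8% of the variance and ordered the mice as replicate 1, replicate 4, replicate 3 and replicate 2. A second component, with 23.1%, set replicate 4 apart from replicates 1 and 2. Single genes divided the mice in the same few ways. Taking the largest gap between neighbouring libraries, 692 variable genes (24.3%) had replicate 1 alone below the rest, 512 (18%) had it alone above the rest, and 582 (20.5%) had replicates 1 and 4 above replicates 2 and 3. Among all tested genes these divisions took 21.7%, 15.2% and 10.8%. The reverse of the last, replicates 2 and 3 above 1 and 4, was seen in 214 variable genes (7.52%) and 9.0% of all genes.

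**Figure D2:**
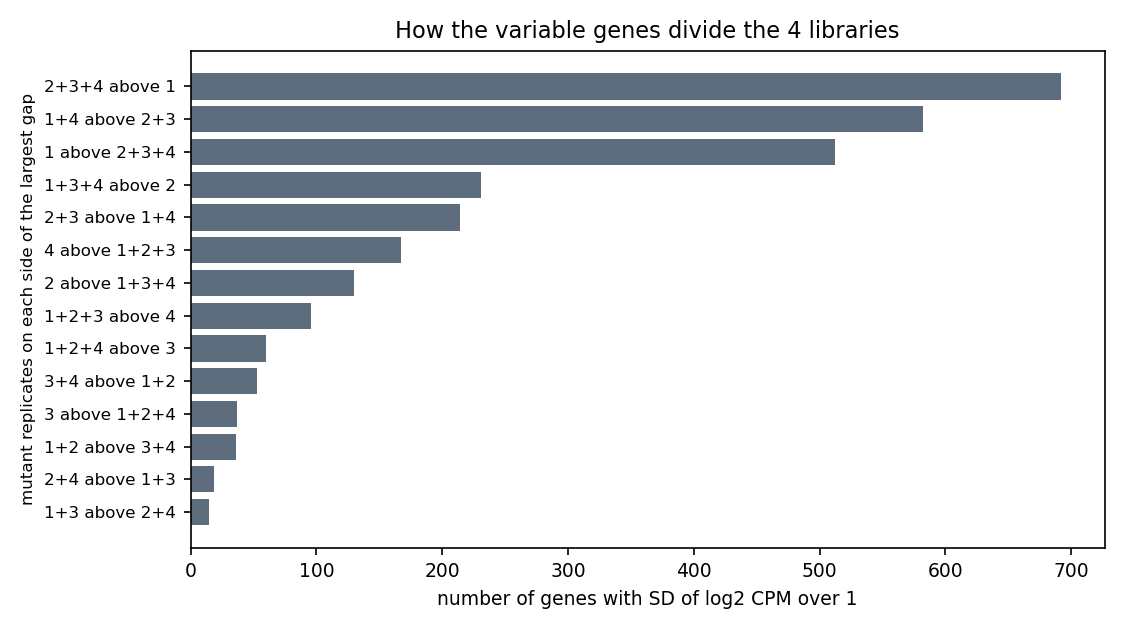
Number of variable genes (SD of log2 CPM over 1; x axis) whose largest gap divides the 4 libraries in each way (y axis, replicate numbers on each side of the gap). The longest bars are 692 genes with replicate 1 below the rest, 582 with replicates 1 and 4 above 2 and 3, and 512 with replicate 1 above the rest.

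The 3 most variable protein-coding genes encode secreted proteins and were far higher in replicate 1 than in the rest. Prss29 (chr17:25318654-25322684), a serine protease secreted by uterine glands, lay at 9191, 17.6, 1.62 and 0 CPM (SD 6.8). Its neighbour Prss28 (chr17:25308646-25311876), the partner protease, lay at 2915, 0.863, 0 and 0.0688 CPM. Spink1, a trypsin inhibitor, lay at 2025, 0.173, 0 and 0.757 CPM. No fold is given for the 3, because at least 1 library lay under the 3-read floor. The adhesion protein Nfasc was also high in replicate 1, at 269, 0, 0.0771 and 0.619 CPM. The reticulon Rtn1 was at 221, 0.259, 0.308 and 10.5 CPM, the synapsin Syn2 at 263, 0.173, 2.16 and 32.2 CPM and the keratin Krt23 at 1449, 1.9, 8.41 and 62.2 CPM, each highest in replicate 1 with replicate 4 second. Serpin genes ran in opposite directions. Serpina3n, an inhibitor of serine proteases, was at 391, 0, 0 and 0.275 CPM. Serpina1e, an alpha-1-antitrypsin, was lowest in replicate 1, at 0.084, 1922, 417 and 81.9 CPM. Serpina1e shares 34.6% of its 50-base words with other genes, so its reads could be split among near copies.

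Each of the other libraries also had genes in which it stood alone. Replicate 2 was high in Kap, a protein best known from kidney, at 0, 144, 1.85 and 1.31 CPM. It was also high in Prap1, a secreted acidic protein of the pregnant uterus, at 33.8, 1448, 30.2 and 106 CPM, and in the kallikrein Klk1 at 0.252, 79.3, 0.308 and 0 CPM. Klk1 shares 24% of its words with other genes. Replicate 4 alone was high in Chil4, a chitinase-like protein, at 0, 1.55, 0.308 and 307 CPM, and in the glutathione transferase Gstm7 at 56.2, 20.6, 35.4 and 981 CPM. The retinoic acid synthase Aldh1a3, at 0.672, 0, 2.54 and 41.7 CPM, and the retinol transporter Stra6, at 3.02, 0.518, 13 and 118 CPM, were likewise highest there. It alone was low in H2-Eb1, an MHC class II chain, at 73.8, 51.5, 86 and 1.51 CPM. Replicate 3 had the fewest genes apart. Among protein-coding genes with a mean of at least 5 CPM, the furthest above was the translation factor Eif5a2, at 2.27, 7.85, 33.9 and 6.6 CPM. Other genes were high in replicates 1 and 4 together. The citrate transporter Slc13a5 was at 46.9, 0, 0.386 and 47.7 CPM and the glucose transporter Slc2a3 at 387, 2.16, 2.85 and 245 CPM. The lipoxygenase Alox15 was at 1059, 9.66, 134 and 706 CPM, lowest in replicate 2 and intermediate in replicate 3.

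Genes of cell division varied together. Of 40 mitosis genes, all of which were tested, 36 were variable, against 20.5% of all genes, and 39 were lowest in replicate 1 (38.5% of all genes). A programme score, the mean over genes of log2 CPM less each gene's own mean, was −2.97, 0.94, 1.42 and 0.61. Replicate 1 lay far below the other 3 mice, which were close together. Mki67, the antigen of dividing cells (chr7:135689784-135716361), was at 13.2, 302, 406 and 218 CPM, a 30.8-fold span from replicate 1 to replicate 3. Plk1, the kinase that drives entry into mitosis, was at 0.672, 46.2, 78.8 and 33.4 CPM. The cyclin Ccnb2 was at 1.18, 52.6, 67.9 and 44.3 CPM and the spindle kinase Aurka at 0.42, 23.5, 32.7 and 14.3 CPM. Replicate 3 was highest for 36 of the 40 genes (23.2% of all genes). The full order 3, 2, 4, 1 was held by 30 of the 40, against 12.3% of all tested genes.

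Top2a was the exception. Top2a, the topoisomerase that untangles sister chromosomes, was at 290.1, 316, 447 and 279 CPM, a span of 1.6-fold (SD 0.31), and its level in replicate 1 lay between those of replicates 2 and 4. No other protein-coding gene overlaps Top2a in the annotation. Next least variable were Ndc80 at 13, 31.9, 27.5 and 17.2 CPM and the condensin subunit Ncapd2 at 30.1, 73, 92.5 and 71.9 CPM. Without replicate 1 no mitosis gene was variable (12.6% of all genes), and the range of the score fell from 4.39 to 0.81 on the log2 scale.

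Promoters of mitotic genes are known to carry a cell cycle homology region (CHR, TTTGAA) and CCAAT boxes, which bind the DREAM and NF-Y complexes. RefSeq windows of 250 bases upstream of the start were at hand for 32 of the 40 genes. Searched on both strands, a CHR was found in 12 (37.5%, against 18.3% of all genes) and a CCAAT box in 23 (71.9%, against 37.5%). The letters of these motifs do not overlap, and both stood in the windows of 11 members (34.4%, 6.45% of all genes), Mki67 and Top2a among them. The stretches of 100 bases below show the motifs in 4 of the variable genes, 5′ to 3′ on the gene's strand, with the motif in capitals. The capitals mark the CHR in Cdc20 (chr4:118437344-118437443, minus strand) and, as its reverse complement TTCAAA, in Kif11 (chr19:37376282-37376381, plus strand). They mark CCAAT boxes in Plk1 (chr7:122159335-122159434, plus strand) and Aurka (chr2:172370571-172370670, minus strand), all in GRCm38.p6.
Cdc20: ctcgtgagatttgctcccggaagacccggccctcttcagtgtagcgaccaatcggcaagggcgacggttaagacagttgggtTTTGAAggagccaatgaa
Kif11: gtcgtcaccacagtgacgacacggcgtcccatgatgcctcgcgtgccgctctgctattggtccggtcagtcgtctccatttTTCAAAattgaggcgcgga
Plk1: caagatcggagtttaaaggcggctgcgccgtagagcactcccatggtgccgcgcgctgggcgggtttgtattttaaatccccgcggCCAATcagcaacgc
Aurka: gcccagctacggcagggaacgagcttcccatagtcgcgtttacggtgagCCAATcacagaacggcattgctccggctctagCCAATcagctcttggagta
Cdc20, the activator of the anaphase-promoting complex, was at 2.43, 59.96, 99.2 and 58.6 CPM and the spindle motor Kif11 at 2.1, 56.5, 81.3 and 45.7 CPM. A match is a description of the letters and not of binding, and Top2a shows that a window with both motifs also occurred in a gene with little spread.

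Genes of DNA replication had the same order. Of 35, 27 were variable (20.5% of all genes), 34 were lowest in replicate 1 (38.5%) and 32 highest in replicate 3 (23.2%). The scores were −2.0, 0.52, 1.15 and 0.33. Thymidine kinase Tk1 was at 0.84, 37.3, 55.2 and 20.5 CPM, the helicase subunit Mcm5 at 6.38, 111, 175 and 85.9 CPM and Mcm6 at 21.7, 156, 229 and 131 CPM. The nuclease Fen1 was the exception, at 65.2, 42.9, 58.7 and 25.5 CPM, highest in replicate 1 and lowest in replicate 4. Without replicate 1, 1 of the 35 was variable (12.6% of all genes), and the other 3 mice still differed by 0.82 in score, with replicate 3 highest.

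Replication genes are textbook targets of E2F factors. Of 29 with a window, 3 held the form TTTGGCGC (10.3%, 0.485% of all genes) and 3 the form TTTCCCGC (10.3%, 1.03%), on either strand. The 2 helicase genes named above carry the first of these, in capitals, at chr8:75109315-75109414 (plus strand, as GCGCCAAA) and chr1:128359761-128359860 (minus strand) of GRCm38.p6.
Mcm5: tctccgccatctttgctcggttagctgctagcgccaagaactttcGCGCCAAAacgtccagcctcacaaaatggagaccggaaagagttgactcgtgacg
Mcm6: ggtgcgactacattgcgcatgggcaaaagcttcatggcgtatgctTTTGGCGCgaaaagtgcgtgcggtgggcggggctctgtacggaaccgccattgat

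Regulators of the G1 phase did not all move one way. Of 27, 13 were variable, against 20.5% of all genes. Cyclin D1 (Ccnd1), which starts the cycle in response to growth signals, was at 20.2, 342, 349.9 and 196 CPM, and cyclin E1 (Ccne1) at 0.84, 10.5, 15.5 and 8.46 CPM. Rbl2, the pocket protein p130 that holds E2F targets silent in resting cells, ran the other way at 234.3, 36.2, 38.5 and 92.8 CPM, highest in replicate 1. The inhibitor Cdkn1c, p57, was also highest in replicate 1, at 18.8, 2.5, 12.4 and 14.3 CPM, but Cdkn2b, the inhibitor p15, was lowest there at 2.18, 42.7, 45 and 22.4 CPM. Cdkn1b, p27, stayed constant at 66.3, 62.1, 67.1 and 61.1 CPM (SD 0.067).

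Oestrogen-induced genes were also lowest in replicate 1, but their peak was in replicate 2 rather than 3. Of 26 genes, 24 were tested and 18 of these were variable (20.5% of all genes). In all, 17 were lowest in replicate 1 (38.5% of all genes) and 14 highest in replicate 2 (24.9%). The scores were −1.83, 1.19, 0.46 and 0.18. Complement C3, a main secretory product of the oestrogen-stimulated uterus, was at 400.1, 13842, 2495 and 1149 CPM, with replicate 1 lowest and replicate 2 far above the rest. Lipocalin 2 (Lcn2), an iron-binding defence protein, was at 57.6, 11535, 3209 and 622 CPM, a 200.3-fold span. Ltf (chr9:111019271-111042767), whose promoter drives Cre here, was at 88.7, 2276, 1261 and 1744 CPM, 25.6-fold lower in replicate 1 than in replicate 2.

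The small proline-rich genes of the Sprr2 cluster, which respond to oestrogen in the uterus, were low in replicate 1. Sprr2f was at 19.5, 2067, 491 and 476 CPM. Sprr2b was at 0.084, 78.9, 39.5 and 93.3 CPM and Sprr2e at 0.084, 43.9, 32.9 and 19.1 CPM, with under 3 reads in replicate 1. Near copies in this cluster can share reads, and Sprr2a3 shares 61.1% of its words with other genes. Other members departed from the pattern. The water channel Aqp5 was at 453, 52.4, 52.1 and 54.1 CPM and clusterin (Clu) at 2307, 324, 794 and 1181 CPM, both highest in replicate 1. The arginine deiminase Padi1 was lowest in replicate 4, at 528, 3296, 1509.8 and 110.1 CPM, as was its neighbour Padi2, at 412, 1095, 499 and 111 CPM. Greb1, a direct oestrogen receptor target in many tissues, ran from 142 CPM in replicate 1 to 46.1 CPM in replicate 4 and so was highest where Ltf was lowest. Without replicate 1, 10 genes of the list were variable (12.6% of all genes) and the score range fell from 3.02 to 1.01.

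Progesterone-responsive genes divided the mice in pairs. Of 18 genes, 17 were tested and 10 were variable (20.5% of all genes). The scores were 0.89, −1.05, −0.94 and 1.1, with replicates 1 and 4 high and replicates 2 and 3 low. The largest gap lay between these pairs, with 1 and 4 on the upper side, for 8 of the 17 genes, against 10.8% of all genes. Ihh, the hedgehog ligand through which the epithelium signals to the stroma, was at 23.1, 0.345, 1.16 and 60.3 CPM. The endocytic receptor Lrp2 was at 247, 13.9, 7.33 and 440.4 CPM and the histamine-forming enzyme Hdc at 529.8, 52, 79.8 and 801 CPM. The retinoic acid hydroxylase Cyp26a1 was at 128, 0.431, 0.54 and 14.2 CPM, with replicate 1 far above replicate 4. Areg, the epidermal growth factor family ligand amphiregulin, was at 19.98, 5.44, 4.86 and 12.7 CPM.

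Not every member took part. Carbonic anhydrase 2 (Car2) was at 149, 4321, 3083 and 546 CPM, high where the others were low. Follistatin (Fst) was high in replicates 3 and 4, at 25.8, 14.8, 88.6 and 146 CPM. The kinase Sgk1 and the chaperone Fkbp5, which glucocorticoids also induce, were constant. Sgk1 was at 146, 138, 187 and 188 CPM and Fkbp5 at 22.6, 25.3, 20.8 and 26.5 CPM. Sgk1 was the single member among the 14 with a window to hold a palindromic progesterone response element upstream, which 0.44% of all genes hold. The score range ran from replicate 2 to replicate 4, so leaving out replicate 1 could not narrow it (2.15, as in all 4). Without replicate 1, 8 of the 17 members were variable (12.6% of all genes). No upstream window of the oestrogen-induced list held the oestrogen response element (GGTCA, any 3 bases, TGACC), which 0.0666% of all genes hold.

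As a list, steroid receptors and coregulators varied less than the steroid-responsive genes. Their median SD was 0.43, against 1.60 for oestrogen-induced and 1.53 for progesterone-responsive genes. Of 20 steroid receptors and coregulators, 2 were variable (20.5% of all genes), with scores of −0.13, −0.17, 0.10 and 0.20. The progesterone receptor Pgr was at 46.7, 29.7, 69.6 and 142 CPM, 4.77-fold higher in replicate 4 than in replicate 2. Esr1 spanned 2.45-fold, and its highest library, replicate 1, was the lowest for Ltf and the Sprr2 genes. Its corepressor Nrip1 followed Esr1, at 623, 327, 255 and 206 CPM. The 2 variable members were low genes, Foxa1 at 1.01, 5.52, 11.7 and 9.42 CPM and Gata3 at 0, 1.29, 2.08 and 1.79 CPM.

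**Figure D3:**
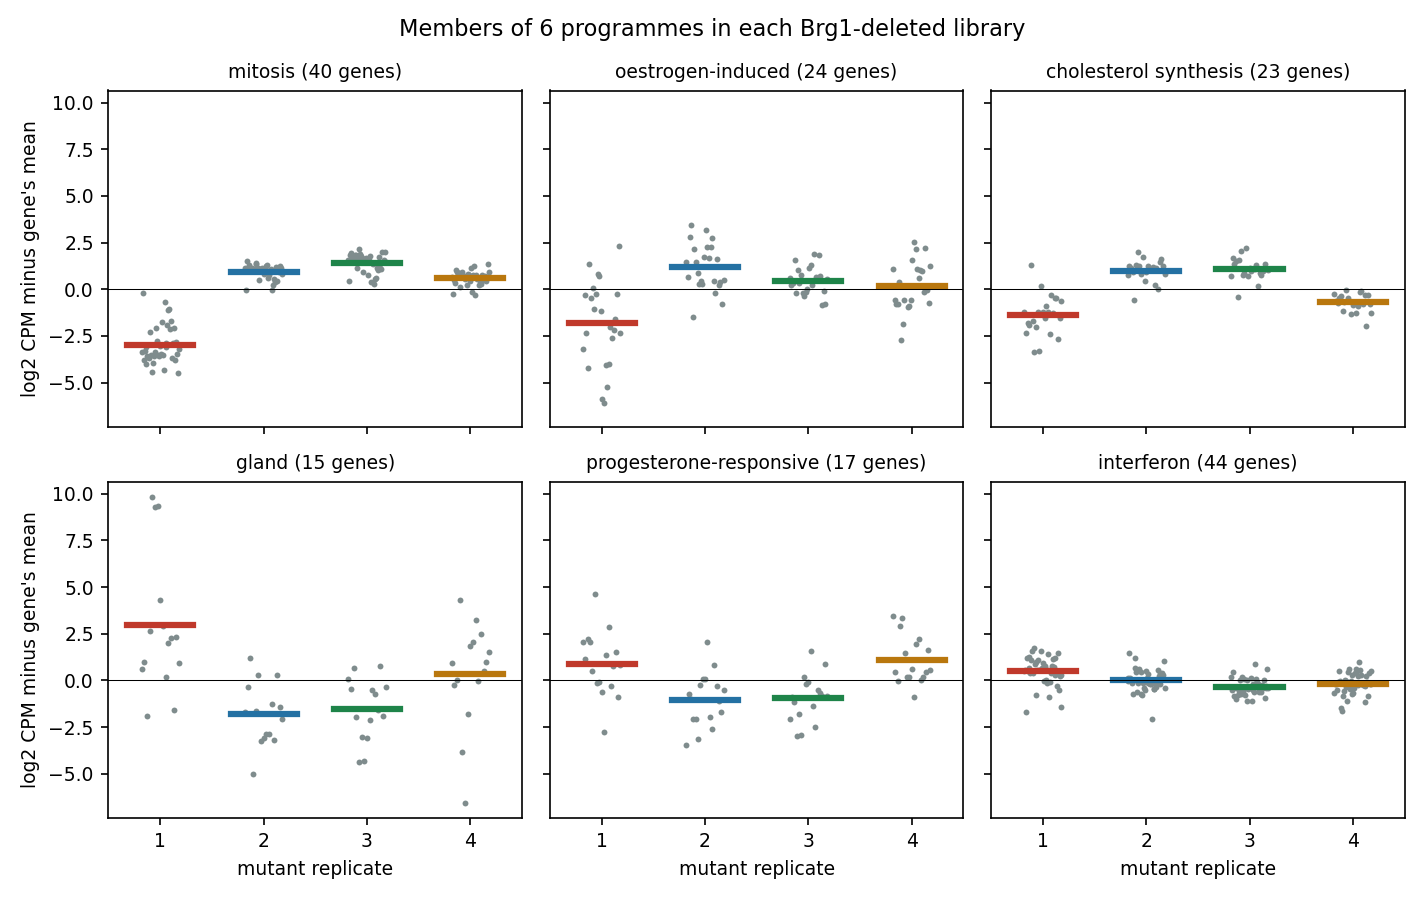
Each point is a gene of the named list in one library (x axis, mutant replicate) and the y axis is its log2 CPM less its mean over the 4 libraries; bars are the mean over genes. Mitosis is low in replicate 1 (score −2.97), cholesterol synthesis is high in replicates 2 and 3 (1.01 and 1.08), progesterone-responsive genes are high in replicates 1 and 4 (0.89 and 1.10), and interferon genes have the smallest range of scores of the 6 panels (0.85).

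Gland genes had wide scores, 2.95, −1.79, −1.53 and 0.37, and 14 of 15 were variable (20.5% of all genes). Replicate 1 was highest for 8 of them (31.8% of all genes) and replicate 4 for 5 (20% of all genes), while replicate 2 was lowest for 8 (23.5% of all genes). Some members, such as Prss28, passed the level filter only through replicate 1. The filter itself sets a wide spread and a high replicate 1 for these. Beyond the secreted proteases described above, the gland chemokine Cxcl15 was at 31.1, 0, 1.16 and 101 CPM and was high in replicates 1 and 4. The growth factor receptor Fgfr2 was at 534, 39.3, 27.5 and 209.6 CPM. The stem cell receptor Lgr5, a Wnt target of gland tips, was at 47.7, 0.949, 3.24 and 55.8 CPM, and the stem cell surface protein Prom1 at 1584, 160.1, 233 and 388 CPM.

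Among gland regulators, Foxa2 and Sox9 moved less than the secreted products. Foxa2, the factor that glands require, was at 10.4, 1.98, 7.02 and 12.9 CPM, lowest in replicate 2. Sox9 (chr11:112782224-112787760), a transcription factor of gland and progenitor cells, was at 329.6, 131, 122 and 141 CPM, where replicate 1 was 2.71-fold above the lowest, and the other 3 lay close together. Lif ran against the list at 110.4, 939, 642 and 424 CPM, lowest in replicate 1. So did the Wnt ligand Wnt7b, at 43.5, 159, 226 and 188 CPM. Without replicate 1, the score range fell from 4.74 to 2.56. Of the 13 genes still above the level filter, 9 were variable (12.6% of all genes). No upstream window of 10 gland genes held the FOXA letters TGTTTAC, which 3.54% of all genes hold.

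Wnt targets were highest in replicate 4. Of 15, 10 were tested and 8 were variable (20.5% of all genes). The scores were 0.29, −1.39, −0.60 and 1.7. Of the 15, 2 (Lgr5 and Axin2) are also in the gland list. Notum, a secreted inhibitor of the pathway, was at 3.53, 1.12, 2.62 and 19.2 CPM, and the inhibitor Wif1 at 1.34, 0.345, 0.771 and 16 CPM, both high in replicate 4 alone. Axin2, a general readout of the pathway, was at 17, 1.98, 6.79 and 25.5 CPM, lowest in replicate 2. The transcription factor Tcf7 went against the list at 4.2, 20.9, 32 and 29.4 CPM, lowest in replicate 1. The range of the score was 3.09 over all 4, 3.1 without replicate 1 and 1.82 without replicate 4. Without replicate 4, 8 genes of the list passed the level filter and 5 were variable (22% of all genes). Some, such as Wif1, had passed it only through replicate 4, so the filter itself favours that library. Of 15 tested Müllerian and Hox genes, which pattern the female tract, 4 were variable, a share close to the 20.5% of all genes. They were led by the ligand Wnt11 at 68.2, 4.49, 3.62 and 23.6 CPM, while Hoxb6 was constant at 89.8, 74.2, 73.7 and 77.1 CPM. Of 12 luminal genes, 7 were variable, against 20.5% of all genes. Without replicate 1, 10 passed the level filter and 2 were variable (12.6% of all genes). The vitamin D receptor Vdr was at 106, 4.66, 6.71 and 13.1 CPM and the luminal calcium-binding protein Calb1 at 66.6, 15, 35.7 and 359.6 CPM, while the zinc finger factor Klf5 was constant at 409.7, 489, 483 and 493 CPM.

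Interferon-stimulated genes varied about as often as genes at large and shifted little together. Of 45, 44 were tested and 10 were variable, a share close to the 20.5% of all genes, and the score range was 0.85 against 4.39 for mitosis. The scores were 0.50, 0.0031, −0.34 and −0.16, highest in replicate 1, which was the highest library for 29 genes (31.8% of all genes). The antiviral synthetase Oas2 was at 186, 36.2, 37.6 and 36.9 CPM, the deubiquitinase Usp18 at 46.3, 11.6, 7.17 and 15.4 CPM and the regulator Irf7 at 111, 52.4, 27.3 and 33.2 CPM, each with replicate 1 apart. Among the variable members Irf1 and Samd9l did the opposite and were lowest there. Irf1, a transcription factor also induced by NF-kB, was at 66.4, 593, 295 and 189 CPM, and Samd9l, an antiviral factor, at 53.1, 287, 216 and 123 CPM. Without replicate 1, 2 of 43 were variable (12.6% of all genes) and the range was 0.33.

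Interferon genes are known to be read out by an interferon-stimulated response element (ISRE), here searched on both strands as GAAA, any 2 bases, GAAA. It was found in the upstream window of 17 of 32 members (53.1%), against 3.46% of all genes. Ifit1 and Trim30a are shown because both hold the element, in capitals, and yet differed in order. Their stretches lie at chr19:34640740-34640839 (plus strand) and chr7:104465194-104465293 (minus strand) of GRCm38.p6.
Ifit1: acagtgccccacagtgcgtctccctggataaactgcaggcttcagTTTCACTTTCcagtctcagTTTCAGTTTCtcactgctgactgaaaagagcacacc
Trim30a: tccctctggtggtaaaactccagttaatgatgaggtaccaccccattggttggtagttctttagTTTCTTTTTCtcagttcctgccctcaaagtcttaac
Ifit1, which blocks translation of viral RNA, was at 29.9, 7.59, 6.17 and 17.7 CPM, with replicates 1 and 4 above 2 and 3. Trim30a was at 77.3, 34.4, 14.3 and 15.4 CPM, with replicates 1 and 2 highest. MHC class I genes were steadier still in score (0.14, −0.29, 0.16 and −0.0099), and 2 of 16 were variable (20.5% of all genes). The light chain B2m was at 684, 366, 685 and 698 CPM, lowest in replicate 2.

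Cholesterol synthesis divided the mice in the same pairs as progesterone-responsive genes, with the sign reversed. All 23 genes were tested, 18 were variable (20.5% of all genes), and the scores were −1.39, 1.01, 1.08 and −0.70. Replicates 2 and 3 were above 1 and 4, with the largest gap between the pairs, for 13 genes (9.0% of all genes). Squalene epoxidase (Sqle) was at 3.44, 119.9, 167 and 23.5 CPM and Hmgcs1, the synthase at the head of the pathway, at 24.5, 302, 404 and 82.5 CPM. Both were high in replicates 2 and 3. The kinase Pmvk was the exception, at 231, 62.1, 70.3 and 72.4 CPM with replicate 1 highest. Without replicate 1 the range was 1.78 (from 2.47), and 16 genes were variable (12.6% of all genes). No window of 16 held the classical sterol regulatory element, found in 0.0814% of all genes.

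NF-kB targets and cytokines were lowest in replicate 1 for 21 of 25 tested genes (38.5% of all genes). Of the 25, 11 were variable (20.5% of all genes), with scores of −1.22, 0.56, 0.11 and 0.56. The neutrophil chemokine Cxcl1 was at 10.8, 279.8, 223 and 133 CPM, the interleukin Il1a at 24.7, 481, 201 and 290.4 CPM and Tnfaip3, the feedback inhibitor A20, at 106, 1787, 782 and 588 CPM. Genes of the NF-kB subunits moved less, with Rela at 187, 165, 148 and 263 CPM and Nfkb1 at 151, 226, 239.7 and 289 CPM. Without replicate 1 the range fell from 1.78 to 0.45 and 2 genes were variable (12.6% of all genes). Immediate early genes, which tissue handling is known to induce, had 3 variable members of 22 (20.5% of all genes). Their scores were 0.07, 0.33, −0.34 and −0.056. Fos was at 1082, 2127, 1003 and 749 CPM and Jun at 1083, 558, 473 and 658 CPM, while Nr4a1 was high in replicate 1 at 2585, 486, 464 and 584 CPM.

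Glycolysis leaned toward replicates 2 and 3. Of 25 hypoxia and glycolysis genes 9 were variable (20.5% of all genes), with scores of −0.57, 0.43, 0.20 and −0.063. Lactate dehydrogenase Ldha was at 449.9, 1442, 1309 and 753 CPM and the aldolase Aldoa at 519, 1176, 886 and 506 CPM. Members known as hypoxia targets outside glycolysis disagreed among themselves. The hydroxylase Egln3 was at 2.85, 185, 177 and 95.1 CPM, lowest in replicate 1, and adrenomedullin (Adm) at 1072, 92.4, 81.7 and 261 CPM, highest there. In the unfolded protein list the secretory regulator Xbp1 was at 698, 180.4, 111 and 242 CPM, highest in replicate 1, and 4 of 20 genes were variable, near the 20.5% of all genes. Of 14 heat shock genes 3 were variable, led by the small chaperone Hspb8 at 236, 1.55, 2.93 and 104 CPM. Of 20 p53 targets 5 were variable, and these shares too are near that of all genes. The cell cycle inhibitor Cdkn1a lay at 101, 231, 149 and 141 CPM and the ubiquitin ligase Mdm2 at 64.6, 79.6, 75 and 85.1 CPM.

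Ribosomal and mitochondrial genes varied little. Of 32 ribosomal protein genes none was variable and 29 were constant, against 18.6% of all genes. Rpl7a, the steadiest, was at 614, 649, 622 and 644 CPM, although it shares 37.9% of its words with other genes. Of 13 genes of the mitochondrial genome 7 were tested, and all 7 were constant. Among them mt-Co1 shares 51.1% of its words with other genes. Of 41 nuclear genes of oxidative phosphorylation 15 were constant and none was variable, yet 37 were lowest in replicate 1 (38.5% of all genes). The proteasome (32 genes) and the splicing machinery (32 genes) had no variable member either, but also few constant ones, 5 and 4, against 18.6% of all genes. In addition, 24 proteasome and 22 splicing genes held the order 3, 2, 4, 1 of the mitosis list (12.3% of all genes). The scores were −0.55, 0.22, 0.36 and −0.031 for the proteasome. They were −0.46, 0.12, 0.40 and −0.059 for splicing. The splicing factor Sf3b1 ran against it, at 1489, 839, 724 and 568 CPM. Over tested genes with a length of 57 to 2523 bases, the median deviation from the gene's mean was −0.11, 0.089, 0.025 and 0.011. At 4210 bases or more it was 0.049, −0.030, −0.015 and 0.022. The part of length in the small shifts of these lists was not tested.

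RNA of SWI/SNF subunit genes was variable less often than that of genes at large. Of 28 subunit genes 25 were tested, 1 was variable (20.5% of all genes) and 10 were constant (18.6%). The largest gap put replicate 1 alone below the rest for 12 of the 25 (21.7% of all genes). The complex itself was not measured. Smarca2, the other ATPase of the complex, was at 87.4, 66.4, 42.4 and 73.4 CPM, the core scaffold Smarcc2 at 130.5, 145, 131 and 132 CPM and Arid1a, the subunit that defines the BAF form, at 188, 262, 242 and 238 CPM. The variable one was Smarcd3, a low gene at 1.01, 0.518, 1.54 and 5.16 CPM, highest in replicate 4. Smarcb1, another core subunit, was lower in replicate 1 alone, at 28.8, 70.4, 73.3 and 71.2 CPM. The order of Smarca4 itself, 4, 3, 1, 2, was held by 3.0% of all tested genes.

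Epithelial identity genes also varied little. Of 31 junction and epithelial factor genes 2 were variable (20.5% of all genes) and 10 constant (18.6%). The scores were −0.12, 0.17, −0.052 and −0.0018. The factor Grhl2 was at 142, 142, 119 and 121 CPM and the polarity protein Pard3 at 86.8, 79, 80.8 and 74.1 CPM. Both variable members were simple keratins that ran in opposite directions. Krt19 was at 192, 2511, 1872 and 899 CPM, lowest in replicate 1, and Krt18 at 3374, 662, 713 and 1431 CPM, highest there. Krt8, which pairs with Krt18 in filaments, spanned 1.59-fold, at 2509, 1962, 1581 and 1765 CPM, and shares 26.9% of its words with other genes.

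The steadiest genes at a mean of 50 CPM or more came from unrelated functions. Naca, which binds new chains at the ribosome, was at 367, 368, 373 and 367 CPM, with an SD of 0.011, below the 0.021 that counting alone gives. The glycosyltransferase B4galnt1 was at 98.6, 101, 99.3 and 99 CPM, the kinase Nek9 at 86.5, 88, 87.2 and 89.3 CPM and the nuclear receptor coactivator Ncoa6 at 84.5, 82.7, 81.4 and 81.9 CPM. The ubiquitin ligase Rnf4 was at 179, 173, 176 and 183 CPM and Pml, which forms nuclear bodies, at 55.2, 53.6, 52.9 and 54.1 CPM. In these 6 genes the highest library was at most 1.06-fold above the lowest (Rnf4).

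Several programmes held a common order of the 4 mice in their scores. Of 27 programmes, leaving out markers of other cell types, 7 held the order 3, 2, 4, 1: mitosis, DNA replication, G1 regulators, cholesterol synthesis, proteasome, splicing, and RNA polymerase II with Mediator. The order 2, 3, 4, 1 was held by oestrogen-induced genes, hypoxia and glycolysis, and oxidative phosphorylation. In these 10 programmes replicates 2 and 3 were above replicates 4 and 1. The opposite side was taken by 2 groups. The scores of progesterone-responsive, luminal and Wnt genes held 4, 1, 3, 2, and those of gland and Müllerian genes held 1, 4, 3, 2. Members often differed from the order of the score. No order was held by more than 4 of 17 progesterone-responsive, 2 of 12 luminal, 5 of 10 Wnt, 5 of 15 gland or 5 of 15 Müllerian genes. The order 3, 2, 4, 1 was held by 30 of 40 mitosis genes but by 7 of 27 G1 regulators. Interferon genes held an order of their own, 1, 2, 4, 3. Among single genes, 12.3% held 3, 2, 4, 1, 11.1% held 2, 3, 4, 1, 5.95% held 4, 1, 3, 2, 9.88% held 1, 4, 3, 2 and 4.32% held 1, 2, 4, 3.

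The ends of the score range were not the same libraries in each list. Replicate 1 was the lowest library for mitosis, NF-kB targets and cholesterol synthesis. Taking it away left ranges of 0.81 of 4.39, 0.45 of 1.78 and 1.78 of 2.47. In the progesterone-responsive and Wnt lists the ends were replicates 4 and 2. Leaving out replicate 1 could therefore not narrow their ranges, which were 2.15 (from 2.15) and 3.1 (from 3.09). Replicate 4 joined replicates 2 and 3 in mitosis (score 0.61, against −2.97 in replicate 1) but joined replicate 1 in cholesterol synthesis (−0.70, −1.39) and progesterone response (1.10, 0.89). The order of all 4 libraries was unchanged under each of 10 other scalings, filters and transformations for mitosis, cholesterol synthesis, hypoxia and glycolysis, oestrogen-induced, progesterone-responsive, gland, Müllerian and Wnt genes. Scaling by total gene reads, which moved all genes by 0.12 in replicate 4 and by −0.11 in replicate 2, put replicate 4 above replicate 2 in DNA replication, G1 regulators, splicing, RNA polymerase II and interferon, with the highest and lowest library kept. The luminal order was unchanged under 5 of 10. For NF-kB targets replicate 1 was lowest in all 10, while the highest was replicate 2 in 6 of them and replicate 4 in 4. The lists of heat shock, MHC class I and mitochondrial-encoded genes, with ranges of 0.22, 0.45 and 0.11, changed order with the scaling.

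**Figure D4:**
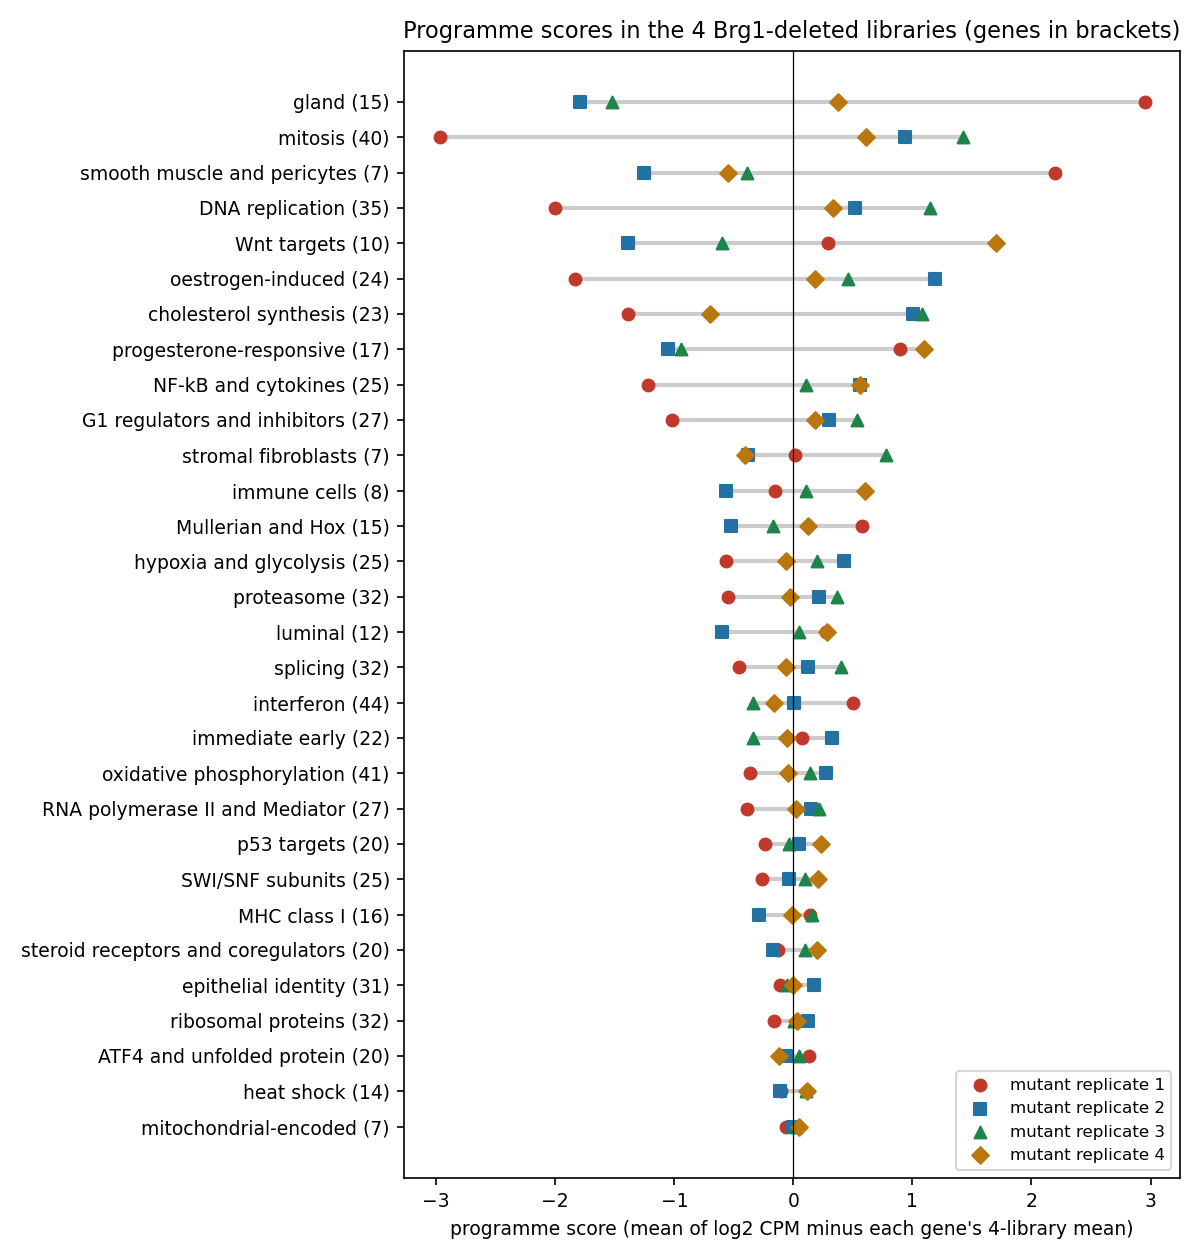
Programme scores of the 4 Brg1-deleted libraries: the x axis is the mean over a list's genes of log2 CPM less each gene's own mean, the y axis names the lists with the number of genes in brackets and each symbol is a library. Replicate 1 (red circles) is far left in mitosis (−2.97) and far right in gland genes (2.95), replicates 2 and 3 lie together in cholesterol synthesis (1.01 and 1.08), and the mitochondrial-encoded genes at the bottom have a range of 0.11.

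Markers of other cell types moved with some of these orders. Sums below run over every gene of a list, tested or not. Smooth muscle and pericyte markers (7 of 8 tested) summed to 91.9, 9.15, 16.8 and 34.7 CPM, and all 7 were highest in replicate 1 (31.8% of all genes). Rgs5, a pericyte gene, was at 8.4, 0, 0 and 0.138 CPM. Without replicate 1, 4 genes of the list passed the level filter. Others, such as Rgs5, passed it only through replicate 1, so the filter itself favours that library in this count. Endothelial markers (4 of 7 tested) summed to 26, 5.52, 6.71 and 25.3 CPM, so replicates 1 and 4 were above 2 and 3, as in the progesterone-responsive list. Stromal fibroblast markers (7 of 8) summed to 207, 208, 521 and 186 CPM, highest in replicate 3, with Col1a1 at 46.2, 56.3, 160.2 and 43 CPM. Immune markers (8 of 10) summed to 800.5, 576, 805 and 533 CPM, with the leukocyte gene Ptprc at 61, 37.3, 32.2 and 25.1 CPM. The neutrophil gene S100a8 was at 0.336, 0.259, 1.0 and 19.9 CPM and S100a9 at 0.168, 0.431, 1.77 and 35.4 CPM, highest in replicate 4, and the T cell gene Cd3e and B cell gene Cd79a were below the level filter. Mesothelial markers (4 of 4) summed to 9.66, 20.6, 14.2 and 42.2 CPM. Ovgp1, a secreted glycoprotein that marks oviduct epithelium, was at 131, 4.92, 4.09 and 8.46 CPM, with replicate 1 32-fold above the lowest, and it shares 26.6% of its words with other genes. The 4 haemoglobin genes were at 0 in every library except 1 read of Hbb-bs in replicate 1, and Alas2, the erythroid haem synthase, was at 6.72, 0.0863, 0.231 and 1.24 CPM. These haemoglobin genes share 53.2% to 89.3% of their words with other genes and reads matching several places were not counted, so their zeros are uncertain. The part of all these markers in the programmes above was not tested.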

How the data were processed

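RNA of sorted uterine epithelium was sequenced from 7 libraries, of which the 4 Brg1-deleted ones were used. The authors deposited, per sample, a table of raw read counts per gene in the format of STAR. The tools named in the submitters' processing notes are Trim Galore, cutadapt, FastQC, STAR and DESeq2, with mm10 as the build. The sources used here give neither the aligner's version nor the annotation release. The strand column with 94.8% to 95.2% of stranded reads (column 4) was used, and summary rows for unmapped, multimapping, no-feature and ambiguous reads were left out. Multimapping reads, 8.45% to 10.4% per library, are in no gene, so near-identical copies are undercounted. Of 53379 gene IDs, 53274 matched GENCODE M21, from which names, types and positions were taken.

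Counts were scaled by TMM over the 4 libraries (edgeR 4.0.16, R 4.3.3) and turned into log2 CPM with a prior count of 2. Genes with a mean of at least 1 CPM were kept. No test was made. The SD of a gene and the SD expected from counting alone were computed (numpy 2.4.6) and checked on simulated data. DESeq2 1.42.0 gave the size factors and variance-stabilised values of alternative settings. Scores and counts per list cover the members above the level filter, and summed CPM covers all members. The share of a gene's 50-base words found in other genes was computed from the annotated transcripts, and genes with at least 15% are marked as uncertain. Promoter windows come from RefSeq on GRCm38.p6.

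Genes were named by rule: the 4 markers Smarca4, Mki67, Ltf and Sox9, the 20 protein-coding genes with the largest SD at a mean of at least 10 CPM, the 20 with the smallest at a mean of at least 50 CPM, the 5 furthest above and below in each library, the 10 most variable with each library left out, and, per list, the 3 largest SDs, the smallest SD and the highest mean. Other named members were chosen after their values were seen. The libraries, lists and markers were chosen with earlier results of these data known. Intervals and floors cover counting error only. That the 4 libraries are separate mice is per the labels. Some genes of the lists are not reported here by name.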

Additional observations from a re-analysis of the deposited data

Results flagged for a closer look

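A gene was marked here when the gap between its highest or lowest library and the nearest of the others took a larger part of its whole range on the log2 scale than Dixon's 95% critical value for 4 samples allows. Chance marks about 1 in 20 groups. Over all 13861 genes 740 (5.34%) passed, 474 of them (3.42%) with replicate 1 alone. Of the 148 genes named in the text 19 passed, and none of 36 list scores did. Named genes were largely picked for their spread, so this share is no comparison with all genes.

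Replicate 1 was alone on the low side for the mitotic genes Ccnb2 (0.892), Cdc20 (0.856) and Kif11 (0.840), for the Sprr2 genes Sprr2b (0.856) and Sprr2e (0.841), and for Egln3 (0.839) and Gata3 (0.837). It was also alone on the low side for Smarcb1 (0.956) and Klf5 (0.885), of which Klf5 was called constant. It was alone on the high side for Aqp5 (0.983), Oas2 (0.978), Pmvk (0.884), Serpina3n (0.870), Nr4a1 (0.865), Sox9 (0.850) and the pericyte gene Rgs5 (0.843). Replicate 2 was alone on the low side for B2m (0.968) and on the high side for Smarcc2 (0.879). Replicate 4 was alone on the low side for H2-Eb1 (0.870). The number of gene reads was set apart too, with replicate 4 above the others (0.912).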

How the results depend on the processing

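No paired analysis was possible because the 4 libraries form 1 group and no result comes from a test. Alternatives were scaling (DESeq2 size factors, upper quartile, total gene reads, TMM over all 7 libraries), prior counts of 0.5 and 10, level filters of 5 CPM on the mean or of 1 read in all, variance-stabilised values, unstranded counts and each library left out in turn. The level filter and the libraries used moved the counts of genes. Variable genes numbered 2844, 1721 at a mean of at least 5 CPM and 4655 with only 1 read asked for, and 1720 to 3145 with 1 library left out, lowest without replicate 1. Constant genes numbered 2869 to 4455 with 1 library left out, highest without replicate 1. The first component held 59.6% with only 1 read asked for and 70.7 to 86.3% with 1 library left out. Fewer libraries leave fewer components, which by itself raises the share of the first, so the latter values are no comparison with all 4. Score ranges with 1 library left out ran from 0.81 to 4.4 for mitosis, 1.01 to 2.98 for oestrogen-induced genes, 0.33 to 0.89 for interferon, 2.56 to 4.78 for gland genes and 1.98 to 2.16 for progesterone-responsive genes. For mitosis, oestrogen-induced and interferon genes the lowest range was without replicate 1. As medians over members the main ranges were 4.88 for mitosis and 3.92 for gland genes, so their rank turns, and without replicate 1 the Wnt list (3.1) lay above gland genes (2.56).

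Genes 2-fold or more apart in 1 library moved likewise. At a mean of at least 5 CPM the counts above the rest were 663, 201, 38 and 163 for replicates 1 to 4, and those below were 269, 68 and 114 for replicates 2 to 4. With only 1 read asked for they were 2140, 942, 510 and 1018 above, and 808, 434 and 370 below for replicates 2 to 4. With variance-stabilised values, replicates 2 to 4 lay below for 286, 66 and 128 genes, and with a prior count of 10 for 285, 80 and 133. With another library left out, replicates 1 to 4 lay above for 1206 to 2107, 412 to 879, 136 to 681 and 437 to 1293 genes and below for 1235 to 1951, 560 to 1631, 242 to 1363 and 304 to 700. The variable members of each list without each library were counted after the data had been seen. Depth limits the genes of 1 to 5 CPM most, whose median SD was 0.81 and whose ratios meet the 3-read floor first.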

Other observations

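Gene families taken by symbol, a grouping made after the data had been seen, spread unevenly. Keratins were variable in 17 of 25 genes, trypsin-like proteases and kallikreins in 15 of 20, cytochrome P450 enzymes in 14 of 20 and small proline-rich proteins in 8 of 8, against 20.5% of all genes. Solute carriers were variable in 65 of 239 (27.2%) and zinc finger proteins in 38 of 299 (12.7%). Ubiquitin-specific proteases were constant in 17 of 44 and proteins of the large ribosomal subunit in 42 of 45, against 18.6% of all genes.

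Aquaporins did not share an order. Aqp8 was at 89.2, 2.93, 0.463 and 0 CPM and was highest in replicate 1, while Aqp4 was at 0.672, 33.6, 58.1 and 10.3 CPM and lowest there. Aqp11 was high in replicates 1 and 4, at 50.7, 2.59, 2.0 and 35.8 CPM. The chloride channel accessory gene Clca1, known from mucus secretion, was at 4.11, 1198, 448 and 323 CPM, lowest in replicate 1. Its relative Clca3b was highest in replicate 4, at 1.01, 6.73, 5.78 and 69.8 CPM. The Kazal inhibitor Spink12 was at 0, 60.8, 120.4 and 7.22 CPM, without a read in the library where Spink1, at 2025, 0.173, 0 and 0.757 CPM, was high.

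Immunoglobulin genes, products of plasma cells, were variable in 20 of 20, against 20.5% of all genes. The share was 37.8% among all genes from 1 to 5 CPM. Some, such as Igkv6-13 at 0, 0, 10.9 and 0 CPM, passed the level filter only through replicate 3. The filter itself sets a wide spread for such genes, so the count is no finding about the family. Igkv6-13 also shares 31.9% of its words with other genes, so its zeros are uncertain. The heavy chain gene Igha of secreted IgA was at 50.5, 59, 197 and 0 CPM and Jchain, which joins IgA units, at 15.1, 17.9, 59.99 and 0 CPM. Both were highest in replicate 3 and at 0 in replicate 4. In that library H2-Eb1 was at 1.51 CPM, against 51.5 to 86 CPM in the others, whereas H2-Ab1, the beta chain gene of the other class II molecule, was at 97.8, 91.8, 148 and 72.4 CPM and so present in all 4. Mmp9, a protease of neutrophils, was at 0.336, 0.173, 0.694 and 19.1 CPM, highest in replicate 4 together with S100a8 and S100a9.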
